A study of Mus musculus with 6 samples.

Results

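The measured genes were the DNA-binding factors of the TCF/LEF family (Tcf7l1, Tcf7l2, Tcf7 and Lef1), beta-catenin itself (Ctnnb1) and 5 genes that beta-catenin and TCF/LEF factors are known to induce (Axin2, Myc, Znrf3, Apcdd1 and Nkd1). Members were taken as every probe set whose platform annotation gives 1 of these 10 symbols and no other, which found 26 of the 45037 non-control probe sets, for 9 of the 10 genes. No probe set used here was annotated to Tcf7. RNA came from cultures of the melanoma line B16-F1 (mouse strain C57BL/6J) in which a lentivirus stably expresses a short hairpin RNA, abbreviated shRNA. One line carries a hairpin to the histone variant macroH2A2, another a hairpin to macroH2A1 and the control line a hairpin to GFP, and all lines were grown in the same serum-containing medium. Each line was represented by 2 arrays, given by the series' design text as independent biological replicates. The labels do not say whether a line was a clone or a pool of transduced cells, and the 6 arrays limit the precision of every value.

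In the canonical Wnt pathway, a Wnt ligand bound to a Frizzled receptor and an LRP co-receptor stops the destruction of beta-catenin, which then enters the nucleus and joins TCF/LEF factors on DNA. Without beta-catenin these factors bind Groucho-type (TLE) corepressors and repress the same genes. Axin2, Znrf3, Apcdd1 and Nkd1 encode feedback inhibitors of the pathway, so their transcripts serve as common readouts of its activity. In the melanocyte lineage the pathway is known for inducing Mitf, the master regulator of pigment cells. CDK8 is the kinase of the Mediator complex and has been described as a coactivator of beta-catenin in human colon cancer cells, so the comparison asked whether beta-catenin targets followed the higher Cdk8 transcript level of the macroH2A shRNA lines.

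Promoter windows are shown for the genes on which the comparisons turn, as RefSeq sequence of build GRCm38.p6, 250 bases before to 50 bases after an annotated transcript start, read 5′ to 3′ on the gene's strand. They are the window of Tcf7l1, whose signal differed most between both knockdown lines, that of Axin2, the target used most often as a pathway readout, and the downstream of both windows of Tcf7l2, which carries a TCF-type motif. Capitals mark a match to CTTTGAT or CTTTGTT on either strand, core forms of the TCF/LEF motif that cannot overlap each other at the same position.
Tcf7l1, chr6:72788996-72789295, minus strand: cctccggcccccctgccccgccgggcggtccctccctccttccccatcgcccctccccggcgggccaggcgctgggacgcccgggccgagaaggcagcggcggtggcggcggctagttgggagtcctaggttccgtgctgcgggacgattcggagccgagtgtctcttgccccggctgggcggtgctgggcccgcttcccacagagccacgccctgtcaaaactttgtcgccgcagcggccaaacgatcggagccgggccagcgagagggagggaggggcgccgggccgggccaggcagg
Axin2, chr11:108920099-108920398, plus strand: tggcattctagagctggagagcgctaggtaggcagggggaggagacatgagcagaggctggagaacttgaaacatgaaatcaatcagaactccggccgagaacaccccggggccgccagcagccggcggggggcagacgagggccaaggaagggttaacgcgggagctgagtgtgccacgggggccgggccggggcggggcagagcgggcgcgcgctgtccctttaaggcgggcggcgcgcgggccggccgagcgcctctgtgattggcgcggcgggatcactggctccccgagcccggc
Tcf7l2, chr19:55895071-55895370, plus strand: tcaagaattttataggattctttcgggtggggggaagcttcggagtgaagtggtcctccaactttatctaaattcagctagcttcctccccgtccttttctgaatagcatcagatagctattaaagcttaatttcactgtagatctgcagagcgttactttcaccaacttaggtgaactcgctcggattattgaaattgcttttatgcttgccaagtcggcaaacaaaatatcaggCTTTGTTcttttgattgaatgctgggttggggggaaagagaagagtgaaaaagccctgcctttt
Of 13 windows for 7 of the genes, 1 held such a motif, the Tcf7l2 window shown, where it starts 14 bases before the annotated start. Myc, Znrf3 and Apcdd1 had no window, so among the targets only Axin2 and Nkd1 were searched. Among all 32851 windows of the table, 9.33% held at least 1 of these motifs. A match describes letters in a window and not a bound site, and the lack of one says nothing of sites elsewhere in the gene.

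The gene under study as the possible coactivator, Cdk8, had signals of 564.5 and 668.8 on the macroH2A2 shRNA arrays and 532.5 and 680.7 on the macroH2A1 shRNA arrays, against 245.8 and 224.0 on the control arrays. Signals are the deposited intensities on a linear scale, and fold changes are of signal + 16. On that scale Cdk8 was 2.52-fold the control level in macroH2A2 shRNA cells (95% confidence interval 1.90 to 3.32) and 2.47-fold in macroH2A1 shRNA cells (1.87 to 3.26). Its limma adjusted p was 0.428 for macroH2A2 shRNA and 0.222 for macroH2A1 shRNA, and became 0.0107 and 0.00835 once the replicate number entered the model as a block. The block was inferred from these data, since the labels do not say that the number marks a shared batch. Macroh2a1, the target of its own hairpin, read 444.2 and 319.1 on the macroH2A1 shRNA arrays, against 1212.7 and 1262.4 on the control arrays. Macroh2a2 read 11.9 and 8.3 on the macroH2A2 shRNA arrays, against 6.1 and 7.5 on the control arrays, too dim to check that label, so that directions in this line rest on the label alone. All 7 melanocyte lineage markers on the array were bright, with mean signals from 1439 upward, while the markers of leukocytes, fibroblasts, keratinocytes and endothelium had mean signals of at most 62.0, led by Col1a2. The summed signal of the 6 fibroblast markers ranged from 104.3 to 118.4 on the macroH2A2 shRNA arrays and from 110.5 to 144.3 on the macroH2A1 shRNA arrays, against 119.2 to 181.7 on the control arrays. Its 2 tested markers lay on opposite sides of the control without overlap. Pdgfra read 25.6 and 25.2 on the macroH2A2 shRNA arrays and 32.5 and 24.4 on the macroH2A1 shRNA arrays, against 82.9 and 52.4 on the control arrays (log2 fold change of the mean of both lines -0.94, limma adjusted p 0.664, or 0.0558 under the block). Col1a2 read 63.0 and 62.1 on the macroH2A2 shRNA arrays and 79.8 and 68.3 on the macroH2A1 shRNA arrays, against 52.8 and 46.1 on the control arrays (0.36, limma adjusted p 1). The part of these markers in the results below was not tested.

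Of the 26 member probe sets, 14 had a mean signal of at least 10.4, the 40th percentile of all probe sets, and entered the test, and they represent 8 genes. The other 12 had signals between 0.1 and 14.7 on all arrays and are described as values only. Both Lef1 probe sets were among them, so that Lef1, the TCF/LEF family member that usually acts as an activator, had no probe set that entered the test. The first read 7.7 and 9.1 on the macroH2A2 shRNA arrays and 8.9 and 10.5 on the macroH2A1 shRNA arrays, against 12.7 and 7.9 on the control arrays, and the second stayed between 0.8 and 6.1. At these signals a fall or a small rise of Lef1 was not detectable, and no array read above 12.7.

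**Figure D1:**
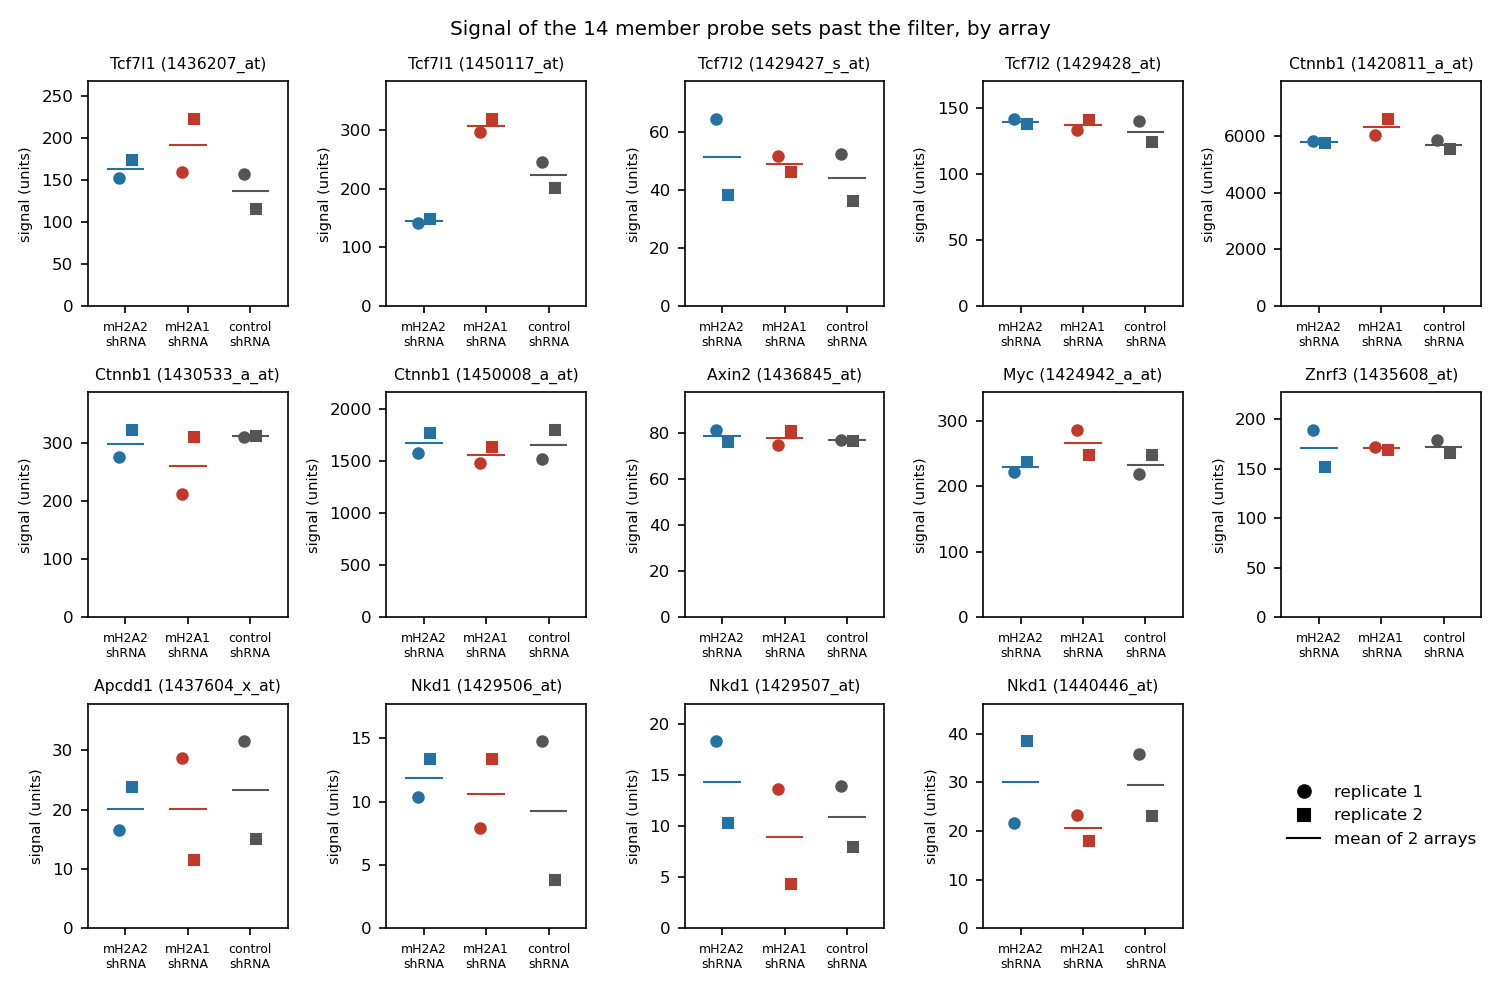
Signal (linear units) of the 14 member probe sets with a mean signal of at least 10.4, by line, with mH2A2 and mH2A1 standing for the macroH2A2 and macroH2A1 shRNA lines. Circles are replicate 1 arrays, squares replicate 2 arrays and bars the mean of 2 arrays. The arrays of all 3 lines overlap in most panels, and the Tcf7l1 probe set 1450117_at shows each line apart from the others.

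Among the TCF/LEF factors, Tcf7l1 acts mainly as a repressor in the absence of beta-catenin. One of its 2 probe sets had the largest log2 fold change in size of the tested member probe sets in each of the 4 comparisons. It was not always the same one, and the 2 did not behave alike. In the mean of both lines it was 1436207_at (0.34, SE 0.19), while the brighter 1450117_at was at -0.06 (SE 0.15). With the brightest probe set per gene, Nkd1 (-0.15) was the largest in size in that comparison. Probe set 1450117_at read 141.1 and 149.1 on the macroH2A2 shRNA arrays and 295.9 and 318.2 on the macroH2A1 shRNA arrays, against 245.1 and 200.9 on the control arrays. The macroH2A2 shRNA arrays were thus below, and the macroH2A1 shRNA arrays above, both control arrays, with no overlap between any pair of lines. Probe set 1436207_at read 152.3 and 174.4 on the macroH2A2 shRNA arrays and 160.6 and 223.2 on the macroH2A1 shRNA arrays, against 157.5 and 116.2 on the control arrays. Here the macroH2A2 shRNA arrays overlapped both other lines, so the low level of this line was not seen with the second probe set.

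For 1450117_at the log2 fold change against control was -0.56 (SE 0.17) in macroH2A2 shRNA cells and 0.44 (SE 0.17) in macroH2A1 shRNA cells. For 1436207_at it was 0.24 (SE 0.22) and 0.44 (SE 0.22) in these lines. Both probe sets of Tcf7l1 therefore gave the same value for macroH2A1 shRNA and opposite signs for macroH2A2 shRNA. For macroH2A1 shRNA the value of 1436207_at came almost entirely from the replicate 2 arrays (0.86 within set 2 and 0.03 within set 1), and that of 1450117_at was 0.62 in set 2 and 0.26 in set 1. None of these values passed the limma adjusted p threshold of 0.05. The smallest limma adjusted p among them was 0.991, or 0.265 under the block.

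The direct comparison of macroH2A2 shRNA with macroH2A1 shRNA cells gave the largest difference of any member. Probe set 1450117_at averaged 145.1 ± 5.66 in macroH2A2 shRNA cells and 307.1 ± 15.8 in macroH2A1 shRNA cells (SD, n = 2 arrays each). The macroH2A2 shRNA level was thus 0.499-fold that of macroH2A1 shRNA cells, or -1.003 on the log2 scale (SE 0.17, 95% confidence interval -1.39 to -0.61), and it was -0.99 in replicate set 1 and -1.02 in set 2. The unadjusted limma p was 0.000370, which placed the probe set at rank 6 of 27025, but the limma adjusted p was 1 without a block and 0.141 under the replicate block, so the difference did not pass. Under the block the limma adjusted p was 0.745 without the signal filter and 0.286 on quantile-normalized signals, so the difference passed in neither fit. In blocked fits that left out each array in turn, the difference lay between -1.102 and -0.905. All these blocked fits were added after seeing the data. Leaving out an array leaves 1 array in a line, which is assumed to vary like the other lines, so only the difference is given. For 1436207_at the same difference was -0.20 (SE 0.22). In this comparison the arrays of both lines did not overlap for 3 of the 14 member probe sets, all lower in macroH2A2 shRNA cells (also Myc and Ctnnb1 1420811_a_at), where lower without overlap held for 14.6%, and any lack of overlap for 28.0%, of all 27025 tested probe sets.

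**Figure D2:**
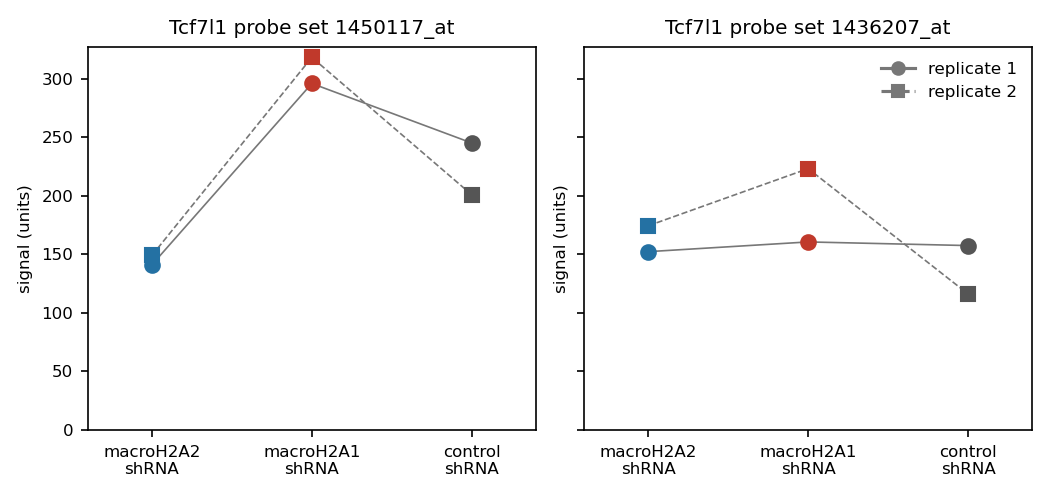
Signal (linear units) of both Tcf7l1 probe sets by line, with replicate 1 as circles and solid lines and replicate 2 as squares and dashed lines. The left probe set is near 145 in macroH2A2 shRNA cells and near 307 in macroH2A1 shRNA cells on both replicates, and the right probe set does not show this difference.

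Tcf7l2, the family member that can act as activator or repressor, did not vary beyond the spread of its arrays. Its brighter probe set read 141.9 and 138.0 on the macroH2A2 shRNA arrays and 133.3 and 141.3 on the macroH2A1 shRNA arrays, against 140.0 and 124.6 on the control arrays. The arrays of all lines overlapped, and the log2 fold changes against control were 0.07 (95% confidence interval -0.32 to 0.47) and 0.05 (-0.35 to 0.44). A second probe set, 1429427_s_at, ranged from 36.1 to 64.4 with overlapping lines, and its replicate 1 signal was above its replicate 2 signal in each line. The other 2 Tcf7l2 probe sets stayed between 0.4 and 12.5.

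Ctnnb1, which encodes the transcriptional coactivator and junction protein beta-catenin, was measured by 3 probe sets, all bright. Probe set 1420811_a_at read 5797.8 and 5737.5 on the macroH2A2 shRNA arrays and 6037.4 and 6586.8 on the macroH2A1 shRNA arrays, against 5851.2 and 5515.2 on the control arrays. Its log2 fold changes of 0.02 (95% confidence interval -0.20 to 0.25) and 0.15 (-0.07 to 0.37) had the narrowest intervals of all members. The macroH2A1 shRNA arrays lay above both control arrays. The gap between the nearest arrays (6037.4 against 5851.2) was smaller than that between the replicates of that line (6037.4 and 6586.8). After quantile normalization the macroH2A1 shRNA value turned to -0.05, so no direction can be given.

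The other Ctnnb1 probe sets did not repeat the higher macroH2A1 shRNA reading. Probe set 1450008_a_at read 1576.0 and 1775.2 on the macroH2A2 shRNA arrays and 1488.0 and 1641.6 on the macroH2A1 shRNA arrays, against 1520.6 and 1801.2 on the control arrays. Probe set 1430533_a_at gave 275.9 and 322.7 on the macroH2A2 shRNA arrays and 212.2 and 310.6 on the macroH2A1 shRNA arrays, against 311.2 and 311.8 on the control arrays. For macroH2A1 shRNA this was a log2 fold change of -0.26 (SE 0.20) that came from the replicate 1 arrays (-0.52 within set 1 and -0.01 within set 2). These are transcript levels, and the arrays do not measure the stability or location of the beta-catenin protein, through which the pathway mainly acts.

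The 5 targets showed no joint movement. Axin2, the scaffold of the beta-catenin destruction complex that the pathway induces as negative feedback, gave nearly the same signal in every culture. Its brighter probe set read 81.1 and 76.0 on the macroH2A2 shRNA arrays and 74.8 and 80.7 on the macroH2A1 shRNA arrays, against 76.8 and 76.3 on the control arrays. In the mean of both lines it was 1.02-fold the control level, with a 95% confidence interval from 0.786-fold to 1.32-fold, so a change smaller than these limits cannot be told from none. The second Axin2 probe set was dim, at 6.5 and 3.3 on the macroH2A2 shRNA arrays and 1.9 and 12.0 on the macroH2A1 shRNA arrays, against 1.6 and 1.5 on the control arrays.

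Znrf3, a membrane ubiquitin ligase that removes Frizzled receptors, was likewise level. It read 189.1 and 152.0 on the macroH2A2 shRNA arrays and 172.2 and 168.8 on the macroH2A1 shRNA arrays, against 179.2 and 165.4 on the control arrays. Both control arrays lay between the macroH2A2 shRNA arrays, and Znrf3 stood at -0.02 (SE 0.18) for macroH2A2 shRNA and -0.01 (SE 0.18) for macroH2A1 shRNA on the log2 scale. Its dim second probe set read 3.1 and 0.8 on the macroH2A2 shRNA arrays and 6.9 and 6.1 on the macroH2A1 shRNA arrays, against 1.8 and 2.2 on the control arrays. This difference lies below the lowest signal that entered the test.

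Myc, a transcription factor that drives growth and is induced by many pathways besides Wnt, was measured by 1 probe set. It read 221.8 and 237.5 on the macroH2A2 shRNA arrays and 285.6 and 247.0 on the macroH2A1 shRNA arrays, against 217.9 and 248.0 on the control arrays. On the log2 scale it was at -0.02 (SE 0.16) for macroH2A2 shRNA and at 0.18 (SE 0.16) for macroH2A1 shRNA, and the macroH2A1 shRNA value came from replicate set 1 (0.37, against -0.01 in set 2). The lines overlapped with the control line in both comparisons.

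Apcdd1, a membrane-bound Wnt inhibitor, and Nkd1, which binds Dishevelled and dampens the signal, were at the dim end. The 1 Apcdd1 probe set that entered the test read 16.6 and 23.8 on the macroH2A2 shRNA arrays and 28.8 and 11.5 on the macroH2A1 shRNA arrays, against 31.6 and 15.1 on the control arrays. The other 5 Apcdd1 probe sets stayed between 0.1 and 7.6. The brightest Nkd1 probe set read 21.7 and 38.5 on the macroH2A2 shRNA arrays and 23.3 and 17.9 on the macroH2A1 shRNA arrays, against 35.8 and 23.1 on the control arrays. The other 3 Nkd1 probe sets, of which 2 entered the test, ranged from 3.8 to 18.3 over all arrays, and the lines overlapped on both tested ones. Replicates of 1 line differed as much as the lines for both genes, and the 95% confidence intervals of the fold change in the mean of both lines ran from 0.582-fold to 1.47-fold for Apcdd1 and from 0.613-fold to 1.33-fold for Nkd1.

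Counted over all members, 0 of the 14 tested probe sets passed a limma adjusted p of 0.05 in any of the 4 comparisons, with or without the replicate block. Their limma adjusted p ran from 0.991 to 1 in the fit without a block and from 0.141 to 0.999 in the fit that has one. Of all tested probe sets 0% passed without the block, and with it 0.144% passed for macroH2A2 shRNA against control, 0.192% for macroH2A1 shRNA against control, 0.311% for the mean of both lines and 0.00370% between both lines. At an unadjusted limma p under 0.05, 1 of the 14 stood out in macroH2A2 shRNA cells and 1 in macroH2A1 shRNA cells, both times Tcf7l1 1450117_at, and 0 in the mean of both lines, against 3.98%, 4.40% and 4.50% of all tested probe sets. Between both lines it was again this 1 probe set, against 2.73% of all. Arrays of the macroH2A2 shRNA line did not overlap the control arrays for 1 of the 14 (29.2% of all tested probe sets), and those of the macroH2A1 shRNA line for 4 of the 14 (27.9%). The arrays of both knockdown lines lay together on 1 side of the control arrays for 0 of the 14, against 12.7% of all tested probe sets.

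Taking the brightest tested probe set of each of the 8 genes, the median log2 fold change was -0.0035 for macroH2A2 shRNA, 0.034 for macroH2A1 shRNA and 0.0039 for the mean of both lines. Over all tested probe sets the medians were -0.03 in each of these comparisons. Of the 5 targets, 2 were higher and 3 lower in the mean of both lines. Each target's 95% confidence interval in that comparison included no change, with upper limits from 1.26-fold to 1.47-fold. For Axin2, Myc and Znrf3 the upper limits were 1.32-fold, 1.33-fold and 1.26-fold, below 1.96-fold, the lower limit of Cdk8, so that these 3 transcripts were not as much higher as that of Cdk8. For the dim Apcdd1 and Nkd1 the added 16 shrinks the fold and its interval more than for Cdk8, so their limits are not set against it. Both comparisons with the control line share the same 2 control arrays. With 6 arrays, a response of a target within its own confidence limits could not be told from none.

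**Figure D3:**
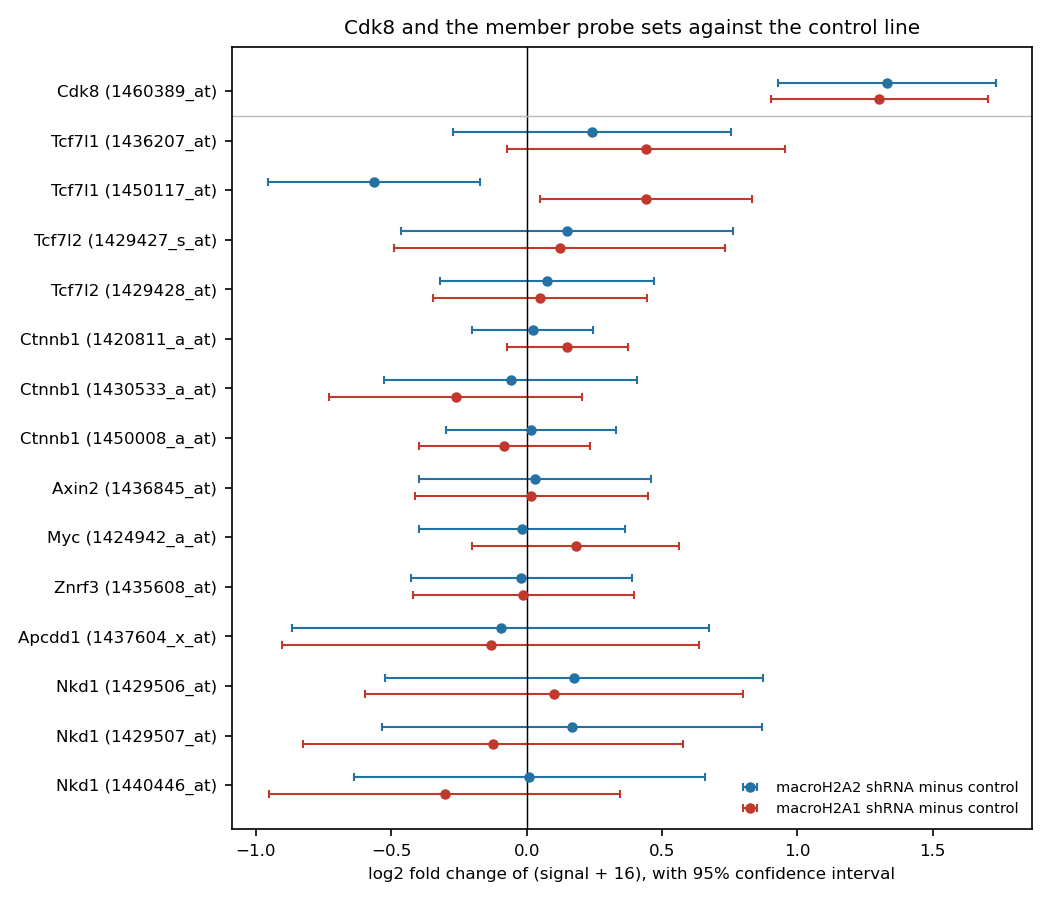
Log2 fold change of (signal + 16) against the control line for Cdk8 (top) and the 14 tested member probe sets, with points for the estimate and bars for the limma 95% confidence interval, macroH2A2 shRNA in blue and macroH2A1 shRNA in red. Cdk8 lies at 1.33 and 1.30, and the intervals of all members but Tcf7l1 1450117_at include 0.

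The genes with the pattern most like that of the brightest probe set of a TCF/LEF factor and of a target were named by Pearson's r across the 6 arrays. For Tcf7l1 1450117_at these were Wdr26 (r = 0.997), Rita1 (0.996), 4930432K21Rik (0.995), Polk (0.987) and Exoc1 (0.985). The other Tcf7l1 probe set reached 0.397. For Myc they were Agbl5 (0.985), Cyria (0.984), Nkapd1 (0.981), Cert1 (0.980) and Myh9 (0.969). With 27025 probe sets and 6 arrays, values this high describe shared ups and downs of a few arrays only.

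The rest of the pathway was described from lists of its other genes, by the mean of both lines against control, with 1 probe set per gene. In that comparison 11592 of all 27025 tested probe sets were higher and 15433 lower, so the counts below do not start from an even split. Among all 149 tested genes of the 17 lists, 0 passed without the block and 1, Cdk8, passed with it. Genes are named below for a small p in this comparison, so a lack of overlap among them is partly built in. It held for 12.7% of all tested probe sets. Under all 11 alternatives run on the lists, the medians kept 1 sign for secreted antagonists, Dishevelled and the destruction complex, coactivators and Myc partners, and changed sign under at least 1 for the other pathway lists. Wnt ligands were dim, with 5 of 19 genes tested and all 5 lower (median -0.17), among them Wnt7b at 35.9 and 28.2 on the macroH2A2 shRNA arrays and 40.1 and 38.3 on the macroH2A1 shRNA arrays, against 64.7 and 25.7 on the control arrays. The high Wnt7b reading belonged to 1 control array, and the ligand median was -0.25 in replicate set 1 and 0.04 in set 2. Of 2 tested genes for Wnt secretion and R-spondins, Wls, which carries Wnt proteins to the cell surface, had a log2 fold change of 0.05 (SE 0.10), and Rspo2 was dim.

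Of 16 tested Frizzled, LRP and related receptors, 7 were higher and 9 lower (median -0.07). Lgr4, an R-spondin receptor, read 380.6 and 360 on the macroH2A2 shRNA arrays and 394.8 and 394.5 on the macroH2A1 shRNA arrays, against 338.5 and 293.7 on the control arrays, a log2 fold change of 0.27 (SE 0.13). The arrays did not overlap, but the difference did not pass the adjusted threshold. Fzd4, a Frizzled receptor, was at -0.36 (SE 0.19), also without overlap. Of 7 tested Wnt antagonists 6 were lower (median -0.24, with -0.45 in replicate set 1 and -0.14 in set 2). These are secreted proteins apart from a membrane receptor of Dickkopf proteins. Dkk3, a Dickkopf-related secreted protein, read 238.8 and 258.0 on the macroH2A2 shRNA arrays and 217.4 and 247.9 on the macroH2A1 shRNA arrays, against 319.2 and 322.6 on the control arrays. Frzb, a secreted decoy of Wnt ligands, read 126.0 and 187.5 on the macroH2A2 shRNA arrays and 161.2 and 205.0 on the macroH2A1 shRNA arrays, against 219.0 and 233.6 on the control arrays. Their log2 fold changes were -0.40 (SE 0.13) and -0.40 (SE 0.19), both without overlap and both past no adjusted threshold. The antagonist that was higher, Sfrp1, another secreted decoy, was at 0.35 (SE 0.31).

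Inside the cell, 10 of 14 tested genes of Dishevelled and the destruction complex with its regulators were higher (median 0.06). This list mixes parts of the complex with proteins that oppose it. Apc, the scaffold that holds beta-catenin for destruction, read 400.7 and 404.0 on the macroH2A2 shRNA arrays and 456.1 and 593.1 on the macroH2A1 shRNA arrays, against 341.2 and 369.3 on the control arrays (log2 fold change 0.35, SE 0.14). Of 15 beta-catenin coactivators 11 were higher (median 0.04), with Smarca4, the ATPase of the BAF remodelling complex, at 0.29 (SE 0.12). Of 13 corepressors and inhibitors of TCF and beta-catenin, 7 were higher and 6 lower (median 0.04), with Sox9, a transcription factor that opposes beta-catenin, at -0.46 (SE 0.21) and Tle3, a Groucho-type corepressor, at 0.33 (SE 0.22). Of 6 tested junction partners of beta-catenin, 4 were higher (median 0.06), with Cdh19, a cadherin, at -0.18 (SE 0.11) and lower without overlap on the arrays of both knockdown lines, and Ctnna1, alpha-catenin, at 0.09 (SE 0.09). None of these genes passed the limma adjusted threshold of 0.05, and the median of all tested probe sets was -0.03.

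Of 20 further tested beta-catenin targets, 12 were higher and 8 lower (median 0.07, with 0.0017 in replicate set 1 and 0.043 in set 2). The pair with the smallest p lay on opposite sides of the control. Sox4, a transcription factor, read 2177.8 and 2670.7 on the macroH2A2 shRNA arrays and 2358.3 and 2386.4 on the macroH2A1 shRNA arrays, against 1805.3 and 1857.0 on the control arrays (log2 fold change 0.38, SE 0.11). Snai2, a repressor of epithelial genes, read 389.6 and 526.9 on the macroH2A2 shRNA arrays and 475.1 and 518.3 on the macroH2A1 shRNA arrays, against 557.2 and 744.6 on the control arrays (-0.43, SE 0.17). Both were without overlap and past no adjusted threshold (limma adjusted p 0.780 for Sox4). Dct, a pigment enzyme, was at 0.18 (SE 0.11).

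Of 10 tested partners and relatives of Myc, 7 were higher (median 0.10). Mxd4, a MAX partner that opposes MYC, read 250.2 and 582.2 on the macroH2A2 shRNA arrays and 432.2 and 449.5 on the macroH2A1 shRNA arrays, against 256.7 and 237.2 on the control arrays, so that 1 macroH2A2 shRNA array lay within the control range. Mxi1, of the same family of MAX partners, was at -0.49 (SE 0.22) with overlapping arrays. Of 25 tested growth genes that MYC is known to induce, 17 were higher (median 0.10, with 0.19 in replicate set 1 and -0.08 in set 2). The direction of their median thus differed between the replicate sets. Npm1, a nucleolar chaperone, was at 0.22 (SE 0.08) with no overlap of arrays, and Cdk4, a cell cycle kinase, was at -0.28 (SE 0.16). In the Mediator kinase module the median over 7 genes was -0.09, and after Cdk8 the smallest p belonged to Med12l, a paralog of the module's MED12 subunit, at 116.7 and 105.8 on the macroH2A2 shRNA arrays and 123.1 and 115.5 on the macroH2A1 shRNA arrays, against 56.7 and 78.1 on the control arrays (0.66, SE 0.18, limma adjusted p 0.716).

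**Figure D4:**
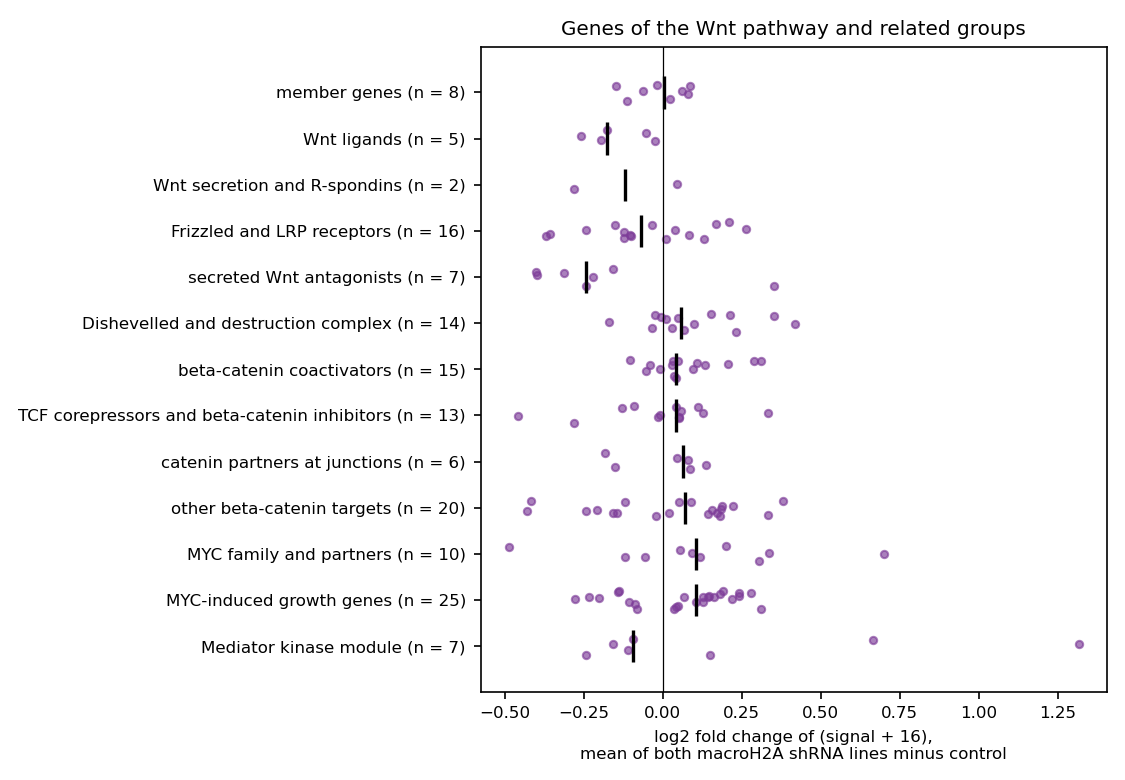
Log2 fold change of (signal + 16), mean of both macroH2A shRNA lines minus control, for each tested gene (points, 1 probe set per gene) by list, with vertical bars for list medians. The 8 member genes, each by its brightest probe set, lie between -0.15 and 0.09, and Cdk8 stands alone at 1.32 in the Mediator kinase module. The Tcf7l1 point (1450117_at, -0.06) averages 0.44 in macroH2A1 shRNA and -0.56 in macroH2A2 shRNA cells. Other tested probe sets are not shown, among them Tcf7l1 1436207_at at 0.34.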

How the data were processed

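RNA of 6 B16-F1 cultures was hybridised to 1-colour Affymetrix arrays. The deposited values are linear signal intensities, 1 per probe set, and the submitters' processing notes name MAS5. The 2% trimmed mean was 150.0 on every array, so each had been scaled to that mean, and a change in total RNA cannot be seen. The median signal still differed, at 24.5 (control), 20.6 (macroH2A1 shRNA) and 19.4 (macroH2A2 shRNA) on the replicate 1 arrays. On the replicate 2 arrays it was 15.1, 15.4 and 16.1 in the same order. The part of this difference in the values of dim probe sets was not tested. The software version and a genome build are not given in the sources used here. Gene names came from the platform annotation, for probe sets with 1 symbol (34945 of 45037, after 64 control probe sets were left out). Signals were analysed as log2(signal + 16). The 27025 probe sets with a mean signal at or above the 40th percentile (10.4) were tested in 1 limma fit of all arrays (limma 3.58.1 in R 4.3.3, variance trend), two-sided, with Benjamini-Hochberg adjustment over all of them at 0.05; the script was tested on simulated data. Fold changes understate those of dim probe sets. The labels do not say that a replicate number marks a shared batch. The differences between replicates 1 and 2 correlated across probe sets between lines (0.372 to 0.576), so the numbers were taken as shared sets. The part of the higher median signal of the replicate 1 arrays in this correlation was not tested. A second fit took the replicate number as a blocking factor. In lists, the brightest probe set stands for its gene. All members are named, and of each list up to 4 genes with the smallest p in the mean of both lines were eligible to be named. The members and lists were chosen with earlier results of these data known. Alternatives were the block, other pseudocounts, filters and scalings, no variance trend and leaving out each array.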

Additional observations from a re-analysis of the deposited data

Results flagged for a closer look

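Probe set 1450117_at of Tcf7l1 lay above both control arrays on both macroH2A1 shRNA arrays and below them on both macroH2A2 shRNA arrays, so every array of 1 line moved opposite to the other line. Its log2 fold change for macroH2A2 shRNA minus macroH2A1 shRNA was -1.003, with a limma adjusted p of 1 without and 0.141 with the replicate block. Such opposite positions held for 407 of the 27025 tested probe sets (1.51%). Macroh2a2 1426363_x_at showed the opposite arrangement, at 11.9 and 8.3 on the macroH2A2 shRNA arrays and 3.5 and 2.0 on the macroH2A1 shRNA arrays, against 6.1 and 7.5 on the control arrays, a difference of 0.47 between the lines in a fit without the filter. That probe set lay below the signal filter, and the difference did not pass the adjusted threshold (limma adjusted p 1).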

How the results depend on the processing

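No member probe set passed the threshold under any of the 14 alternatives listed at the outset in any of the 4 comparisons. With the replicate block the counts over all probe sets were 39 for macroH2A2 shRNA, 52 for macroH2A1 shRNA, 84 for the mean of both lines and 1 (Macroh2a1) between the lines, against 0 in each without it. Member values had the opposite sign in 78 of 776 repeats, none of them past the threshold, and 40 of the 56 member results turned under at least 1 setting. The largest main value that turned was 0.20 in size. Leaving out 1 array at a time, the members' median ran from -0.0059 to 0.11 for macroH2A1 shRNA, from -0.047 to 0.049 for macroH2A2 shRNA, from -0.041 to 0.065 for the mean of both lines and from -0.081 to 0.0029 between the lines. The macroH2A1 shRNA median was 0.10 with a 60th percentile filter. The macroH2A2 shRNA median was 0.025 on quantile-normalized signals and 0.067 on median-centred ones. The median between the lines was -0.0067 without the filter, -0.068 with a 60th percentile filter, 0.022 on quantile-normalized signals, 0.020 on median-centred ones and 0.019 when a gene's probe sets were averaged. The cause of these shifts was not tested. The block changed no call on a member. Over 11 alternatives the list medians kept their sign for Wnt antagonists (-0.42 to -0.09) and for Dishevelled and the destruction complex with its regulators (0.0031 to 0.15). They also kept it for coactivators (0.025 to 0.10) and Myc partners (0.046 to 0.21). The medians turned for Wnt ligands (-0.21 to 0.031), Wnt secretion (-0.37 to 0.047), receptors (-0.17 to 0.094), corepressors (-0.0015 to 0.11), junction partners (-0.078 to 0.12), other targets (-0.026 to 0.17), MYC growth genes (-0.072 to 0.21) and the Mediator module (-0.17 to 0.032). The line difference of Tcf7l1 1450117_at lay between -1.08 and -0.83 over the 14 alternatives. Its combinations of the block with another choice, and the alternatives for list genes, were chosen after seeing the data. Dim signals limit Lef1, Apcdd1 and Nkd1.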
